A study of Mus musculus with 6 samples.

Results

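The mitochondrial ribosomal protein genes, named Mrpl or Mrps for the large and the small subunit, encode the proteins of the ribosome inside mitochondria. Members were all genes whose platform annotation gave 1 symbol made of Mrpl or Mrps and a number, which yielded 76 of the 18194 genes measured, from 156 of 45101 probe sets. Where a gene had several probe sets, the brightest by mean log2 signal stood for it. The rule used no difference between groups. All 76 members passed the filter on low signals, and 49 cytosolic ribosomal protein genes (Rpl and Rps), of which 46 passed, served as the reference.

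RNA was measured on 6 single-colour Affymetrix mouse arrays, 2 for each p53 status, in tumour cells of the ovarian surface epithelium, the cell layer that covers the ovary. The groups were wild-type for p53 (both mice 9 weeks old), heterozygous for Trp53 R172H (9 and 12 weeks) and homozygous for Trp53 R172H (both 4 weeks), so homozygosity and age cannot be told apart. All mice had a mixed background strain, and the cells were trypsin-digested, plated in serum-containing medium and not passaged. The labels do not say whether the 2 arrays of a group came from separate cultures, and p-values measure only the spread between these arrays.

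The mitochondrial ribosome translates the few messages of mitochondrial DNA, all of which encode membrane proteins of oxidative phosphorylation. Its RNA comes from mitochondrial DNA, but every one of its proteins is encoded in the nucleus, made by cytosolic ribosomes and imported. Many of these proteins have bacterial homologues and others exist in mitochondrial ribosomes only, and their genes are known to carry promoter elements for factors such as NRF1, GABP of the ETS family and YY1.

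To show the DNA in front of members described below, the 250 bases before the start were read from RefSeq promoters on GRCm38.p6, 5′ to 3′ on the gene's strand. A promoter was matched for 67 members with 73 starts, and 9 members had none in the table. Mrpl12 (chr11:120484387-120484636, plus strand) and Mrps22 (chr9:98601680-98601929, minus strand) are shown for a match to the NRF1 and the ETS letters, each in capitals. Mrpl35 (chr6:71823785-71824034, minus strand) and Mrps5 (chr2:127587176-127587425, plus strand) had the smallest adjusted p-values with higher signals in homozygous arrays, and Mrpl24 (chr3:87919294-87919543, plus strand) had lower ones. The 41 bases in front of Mrps11 (chr7:78783090-78783130, plus strand) are the whole gap to the start of Mrpl46, which is transcribed the opposite way. As shown, the last 4 sequences hold no match to the NRF1, ETS or YY1 letters. The full 250 bases before Mrps11, which reach into Mrpl46, do hold the YY1 letters and are counted below.
Mrpl12: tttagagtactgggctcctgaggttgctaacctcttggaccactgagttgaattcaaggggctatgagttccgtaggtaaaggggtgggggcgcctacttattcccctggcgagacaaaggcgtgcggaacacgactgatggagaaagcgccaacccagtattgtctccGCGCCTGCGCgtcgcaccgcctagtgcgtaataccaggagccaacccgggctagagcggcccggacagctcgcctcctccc
Mrps22: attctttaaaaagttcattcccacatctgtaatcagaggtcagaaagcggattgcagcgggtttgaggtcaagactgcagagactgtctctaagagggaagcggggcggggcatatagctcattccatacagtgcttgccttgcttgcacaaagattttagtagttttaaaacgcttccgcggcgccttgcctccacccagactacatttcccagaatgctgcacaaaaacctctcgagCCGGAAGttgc
Mrpl35: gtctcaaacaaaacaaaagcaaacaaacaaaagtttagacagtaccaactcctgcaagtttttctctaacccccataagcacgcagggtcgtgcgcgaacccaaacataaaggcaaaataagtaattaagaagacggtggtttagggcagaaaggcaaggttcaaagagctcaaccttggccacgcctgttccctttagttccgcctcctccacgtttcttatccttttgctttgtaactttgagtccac
Mrps5: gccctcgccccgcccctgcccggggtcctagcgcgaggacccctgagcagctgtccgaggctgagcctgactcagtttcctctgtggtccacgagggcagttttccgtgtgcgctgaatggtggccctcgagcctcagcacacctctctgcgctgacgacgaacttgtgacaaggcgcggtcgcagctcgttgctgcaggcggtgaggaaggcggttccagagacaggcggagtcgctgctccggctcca
Mrpl24: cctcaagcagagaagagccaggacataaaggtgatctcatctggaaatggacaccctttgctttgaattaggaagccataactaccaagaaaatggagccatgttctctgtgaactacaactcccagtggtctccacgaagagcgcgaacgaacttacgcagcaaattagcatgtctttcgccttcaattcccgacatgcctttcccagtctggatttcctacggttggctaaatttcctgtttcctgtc
Mrps11: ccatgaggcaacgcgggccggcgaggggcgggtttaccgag

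Searched on both strands, the NRF1 motif occurred in the 250 bases before 12.3% of the members' starts, 1.96% of those of cytosolic ribosomal protein genes and 3.74% of all 32851 starts in the table. CCGGAAG (ETS) occurred before 23.3%, 33.3% and 6.91%, and AAGATGGC (YY1) before 5.48%, 3.92% and 1.56%. CACGTG (E-box) occurred before 9.59%, 9.8% and 6.02%, GGGCGG (SP) before 50.7%, 45.1% and 32.7%, and CCAAT (NF-Y) before 37%, 27.5% and 33.8%. Matches of different motifs may overlap. The ETS, NRF1 or YY1 letters stood before 28 members, and 8 members held none of the 6 motifs. The window reached into another gene in 30 of 67 members, and a match describes letters only.

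Signals were linear intensities, with a median of 41.1 to 60.6 per array and a background level, the highest value of the Trpn control probe sets, of 24.5. Of 14 markers of the labelled surface epithelium 0 were under background in every array, but Epcam, Cdh1 and Aldh1a2 each were in 1 homozygous array. By group means 13 of 14 were lower in homozygous than in wild-type arrays, among them Upk1b and Epcam, which fell in the limma fit (adjusted p = 0.0270 and 0.0136). The summed signal of the 14 was 59623 and 68933 in homozygous arrays against 145416 to 211282 in the other 4. Summed signals of 14 macrophage markers (753 and 758 against 2751 to 6109), 11 endothelial markers (2106 and 3014 against 9376 to 11173) and 10 granulosa and theca markers (705 and 4004 against 9450 to 16496) were lower in homozygous arrays, those of 11 fibroblast markers lay on both sides (52888 and 119109 against 75654 to 88341), and all 7 lymphocyte markers measured were under the filter. The endothelial markers Tie1 and Vwf, the theca marker Cyp17a1 and 5 lymphocyte markers were under background in every array. Further markers that fell in homozygous against wild-type arrays (limma, adjusted p under 0.05) were Lyz2, Ctss and Mpeg1 of macrophages, Kdr, Icam2 and Esam of endothelium and Pdgfra of fibroblasts. The actin 3′ minus 5′ log2 difference was 0.59 and 0.39 in homozygous arrays and 0.66 to 0.96 in the others, and that of Gapdh was -0.18 and -0.12 against -0.13 to 0.0071. The signal of the 5′ probe set of 18S ribosomal RNA was 21023 and 6696 in homozygous arrays, the lowest in array 2, and 16873 to 22559 in the others. The part of cell makeup and RNA quality in the results below was not tested, and fewer cells of a type and less RNA per cell cannot be told apart.

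Most members had higher mean signals in homozygous arrays than in wild-type arrays, 14 of 76 by more than 1 on the log2 scale, while 8 were below 0 and no single member passed the test. The median log2 signal of the 76 members was 10.63 and 10.70 in the wild-type arrays, 10.66 and 10.72 in the heterozygous arrays and 11.36 and 10.99 in the homozygous arrays. As linear signals these medians were 1585 and 1661, 1617 and 1683, and 2633 and 2036. Both homozygous arrays lay above the other 4, and homozygous array 1 lay above array 2. The cytosolic reference had medians of 14.31, 14.67, 14.50, 14.65, 14.69 and 14.64 in the same order of arrays, and all genes tested had medians from 9.36 to 9.55. The reference median was lowest in wild-type array 1 and did not set the homozygous arrays apart.

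**Figure D1:**
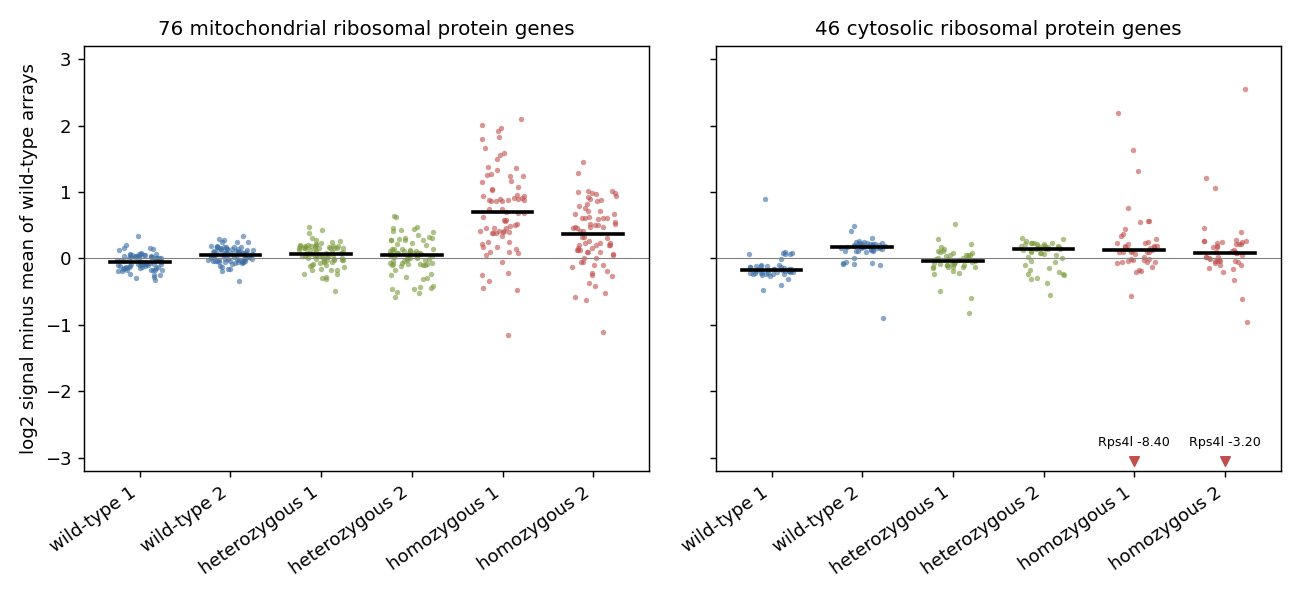
Each point is 1 gene's log2 signal minus its mean over the wild-type arrays, for 76 mitochondrial (left) and 46 cytosolic (right) ribosomal protein genes, and the bars are medians of these differences; 2 triangles mark Rps4l, which lies off the axis. The mitochondrial genes stand above 0 for most members in both homozygous arrays, while the cytosolic medians stay near 0.

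Homozygous arrays were compared with wild-type arrays because the series asks how expression differs with p53 status. The difference of group means was above 0 in 68 of 76 members (background, the share of all genes tested, 45.4%). On the log2 scale the members' median difference was 0.48, with an interquartile range of 0.17 to 0.93 and extremes of -1.13 and 1.73. The median was 0.08 in the cytosolic reference, where 31 of 46 genes were above 0, and -0.09 in all 10916 genes tested. Both homozygous arrays exceeded both wild-type arrays in 52 members (background 27.4%) and lay below them in 3 (background 33.8%). At a Benjamini-Hochberg adjusted p under 0.05 in limma, 0 members were called (background 2.67%, of which 0.412% higher and 2.25% lower), and 29 had an unadjusted p under 0.05 (background 28.9%), 28 of them higher (background 11.7%) and 1 lower (background 17.2%). Among the 7496 genes in the members' range of levels, the median difference was -0.0046, 49.9% were above 0 and 32.1% had both homozygous arrays higher.

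Leaving out a homozygous array leaves 1 in that group, which is then assumed to vary like the other groups. Members were then called only without homozygous array 2, while calls over all genes tested rose whichever homozygous array was left out. The members' median was 0.37 to 0.70 when any 1 array was left out. Among scalings it was 1.02 with each array centred on its median over the 18194 genes measured. The median of all genes tested then moved from -0.09 to 0.45. With arrays centred on the cytosolic genes the members' median was 0.31. Each of these scalings shifts all genes of an array alike, so the members' median necessarily stayed 0.57 above that of all genes tested. Counts above 0 were 55 of 76 with arrays centred on the cytosolic genes, 67 with quantile-normalised and 75 with median-centred arrays. The reference median itself turned sign, to -0.09, with arrays centred on the cytosolic genes.

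**Figure D2:**
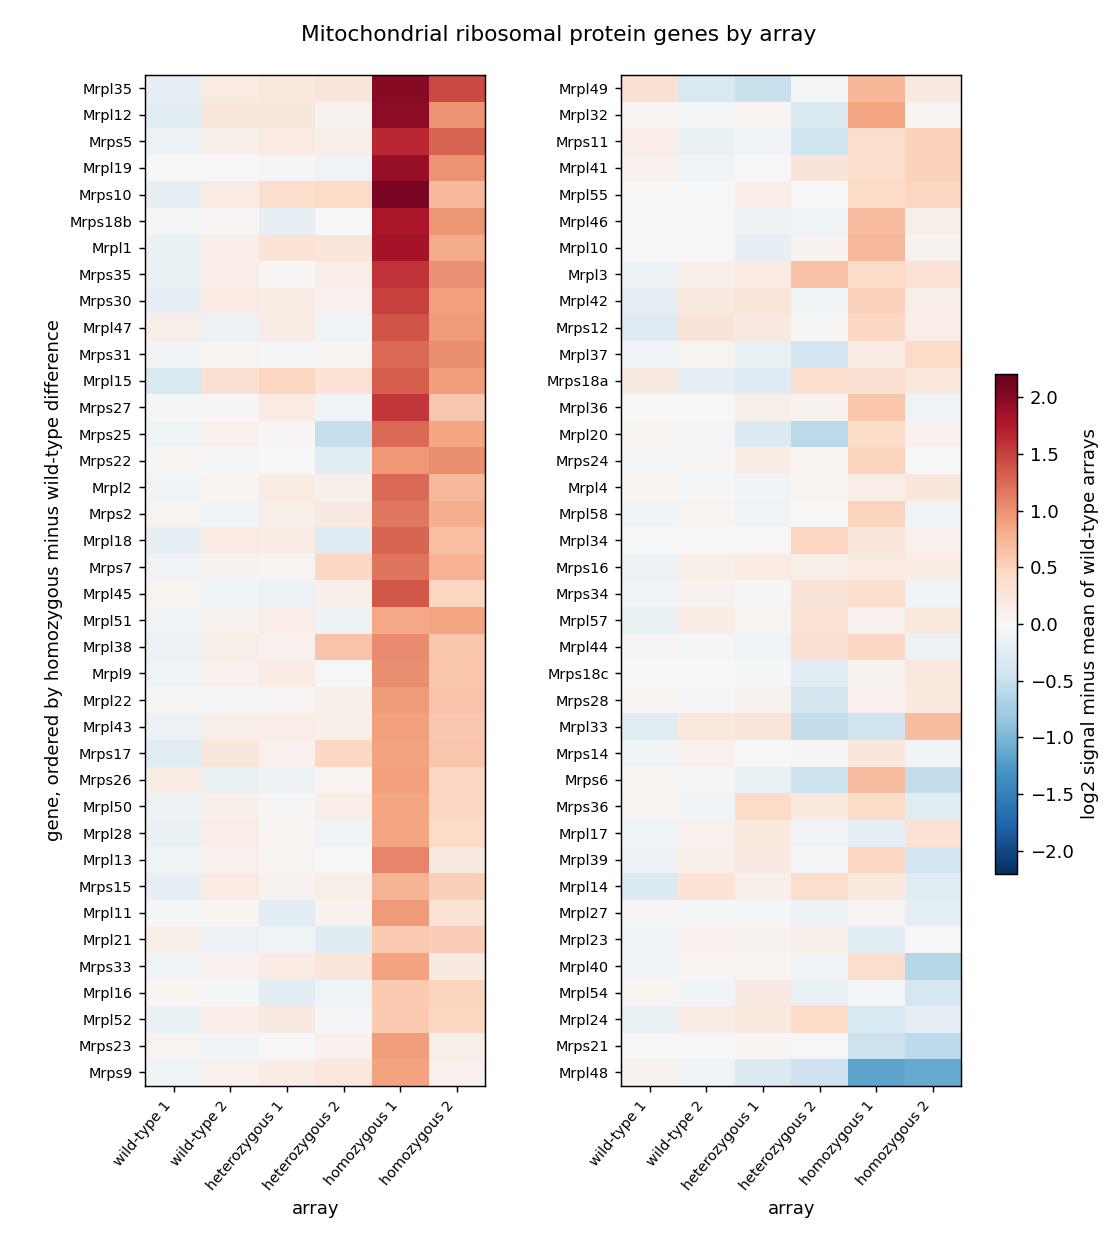
Colour gives the log2 signal of each of the 76 members minus its wild-type mean, in 6 arrays (columns), with genes (rows) ordered by the difference of homozygous and wild-type means. Red, above the wild-type mean, fills both homozygous columns in the left panel, and Mrpl48, in the last row of the right panel, is blue in both.

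Large subunit proteins with bacterial homologues include binders of the ribosomal RNA core and proteins of the stalks and the exit tunnel. Their 28 genes had a median difference of 0.55 between homozygous and wild-type arrays, and 24 were above 0. Mrpl35, the counterpart of bacterial L35, had 1178 and 1502 in wild-type, 1566 and 1606 in heterozygous and 5344 and 3644 in homozygous arrays, as linear signals. Both homozygous arrays stood above the other 4 without overlap. The difference was 1.73 ± 0.29 (limma SE, n = 2 arrays a group), with the smallest adjusted p among members, 0.0502 in limma. It passed the threshold with a filter at the 60th percentile (adjusted p = 0.0351) and with signals raised to background (0.0381); over all alternatives its adjusted p ran from 0.00853 (without homozygous array 2) to 0.436 (without wild-type array 2 and heterozygous array 1).

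Mrpl12, the stalk protein that calls translation factors to the ribosome, had 1976 and 2778 in wild-type, 2771 and 2476 in heterozygous and 9184 and 4643 in homozygous arrays. The groups did not overlap, and homozygous array 1 was well above array 2. The difference was 1.48 ± 0.40 (adjusted p = 0.098, limma). Mrpl1, of the stalk on the side where tRNAs leave, had 274 and 333, 374 and 365, and 1070 and 534 (difference 1.32). Its further probe set above the filter, nearly as bright, gave a difference of 0.37. Mrpl10 and Mrpl11, which anchor the Mrpl12 stalk, differed by 0.39 and 0.62, and Mrpl54 by -0.21. Over the 5 stalk genes the median was 0.62.

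Mrpl19, a bacterial-type large subunit protein, had 944 and 926 in wild-type, 919 and 891 in heterozygous and 3522 and 1848 in homozygous arrays, a difference of 1.45 ± 0.35 (adjusted p = 0.0846, limma). Its wild-type and heterozygous values were close to each other and far below both homozygous ones. Genes of the core that binds ribosomal RNA near the catalytic centre, Mrpl2, Mrpl3, Mrpl4, Mrpl16 and Mrpl27, had differences of 0.98, 0.37, 0.20, 0.53 and -0.08. Mrpl27 had the smallest range of all members, 0.27 on the log2 scale, with signals of 2974 and 2889, 2896 and 2702, and 3048 and 2522.

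Genes of proteins around the exit tunnel, where the new chain leaves, had the smallest median of the groups by role, 0.11 over 8 genes, which was -0.07 with arrays centred on the cytosolic genes. Among them Mrpl47 differed by 1.16 and Mrpl45, which anchors the ribosome to the inner membrane, by 0.91, but Mrpl17, Mrpl39 and Mrpl44 by 0.05, 0.02 and 0.16. Mrpl24 had 2598 and 3273 in wild-type, 3372 and 3943 in heterozygous and 2301 and 2552 in homozygous arrays. Its homozygous values lay below the other 4, by -0.27 ± 0.24 against wild-type (adjusted p = 0.498, limma), and this difference was 0.28 with median-centred arrays.

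Of the large subunit proteins found in mitochondria only, 18 of 21 genes were above 0 and the median was 0.41. Mrps30, a large subunit protein despite its symbol, had 909 and 1164, 1154 and 1092, and 2908 and 1917 (difference 1.20 ± 0.30). Mrpl51, the member with the highest probe set signal, had 5510 and 6176 in wild-type, 6445 and 5427 in heterozygous and 10570 and 10706 in homozygous arrays. The homozygous values were close to each other and above the rest, with a difference of 0.87 ± 0.22 (adjusted p = 0.0919, limma). Mrpl52, also among the brightest, had 3984 and 4884, 5039 and 4302, and 6595 and 6139 (0.53), with homozygous arrays on top. Mrpl58, a peptidyl-tRNA hydrolase built into the ribosome, had 2206 and 2396, 2192 and 2276, and 3245 and 2152, which overlapped.

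Mrpl48, a protein of the central protuberance, had the lowest difference of the 8 members below 0. Its signals were 2703 and 2451 in wild-type, 2073 and 1873 in heterozygous and 1153 and 1193 in homozygous arrays. The 3 groups did not overlap, with heterozygous values between the others. Homozygous minus wild-type was -1.13 ± 0.21 (adjusted p = 0.0591, limma), and heterozygous minus wild-type was -0.39. The limma adjusted p of the former was 0.0411 with a filter at the 60th percentile and 0.0503 with signals raised to background. For homozygous minus heterozygous arrays it reached 0.565, with median-centred arrays. By group means all 3 of its probe sets were lower in homozygous than in wild-type arrays, by -1.13, -0.76 and -0.66. The last of these was dim, with a geometric mean signal of 70.0 near the filter, and its groups overlapped. The other central protuberance genes Mrpl18, Mrpl38, Mrpl40 and Mrpl46 differed by 0.97, 0.83, -0.12 and 0.41.

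**Figure D3:**
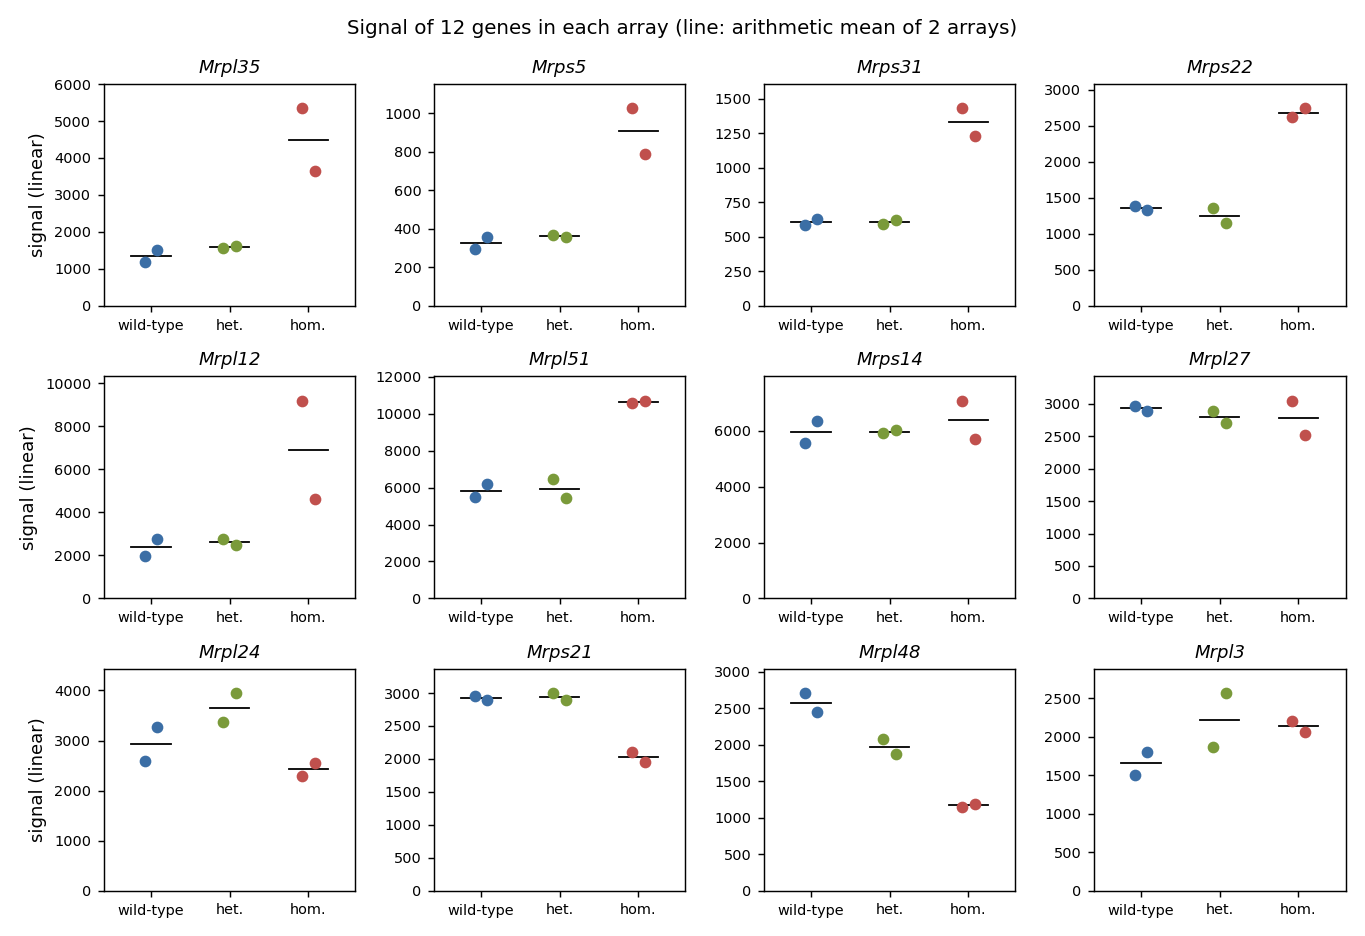
Linear signal of 12 members in each array, with 2 arrays for wild-type, heterozygous (het.) and homozygous (hom.) cells; lines are arithmetic means and each panel has its own axis from 0. Mrpl35, Mrps5, Mrps31, Mrps22, Mrpl12 and Mrpl51 have both homozygous points on top, Mrps14 and Mrpl27 overlap, and Mrpl24, Mrps21 and Mrpl48 have them at the bottom.

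In the small subunit, which reads the message, 25 of 26 genes were above 0 and the median difference was 0.59. The 16 genes with bacterial homologues had a median of 0.38 and the 10 found in mitochondria only had 1.02, all 10 above 0. Mrps5, a protein at the message entry, had 295 and 357 in wild-type, 370 and 357 in heterozygous and 1027 and 790 in homozygous arrays. Both homozygous arrays were above the rest, and the difference was 1.47 ± 0.25 (adjusted p = 0.0524, limma). Over the alternatives the adjusted p ran from 0.0137 (without homozygous array 2) to 0.704, the latter with the mean of all probe sets of the gene, where the difference was 0.31. It passed with a filter at the 60th percentile (adjusted p = 0.0369) and with signals raised to background (0.0402).

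Among genes of the small subunit's head, Mrps10 had 1025 and 1303, 1502 and 1546, and 4928 and 1894, the widest range of all members (2.27 on the log2 scale). Its homozygous arrays were above the rest, but array 2 by little. Mrps35 differed by 1.30, Mrps7 by 0.97, Mrps33 by 0.54, Mrps9 by 0.50, Mrps24 by 0.25 and Mrps14 by 0.10. Mrps31, a head protein of mitochondria only, had 583 and 630, 591 and 621, and 1430 and 1230. The wild-type and heterozygous values were close to each other and under both homozygous ones, and the difference was 1.13 ± 0.22 (adjusted p = 0.0624, limma). All 8 head genes were above 0, with a median of 0.76.

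Mrps22 had 1389 and 1324, 1355 and 1150, and 2621 and 2742, with homozygous values close together and a difference of 0.98 ± 0.22 (adjusted p = 0.0725, limma). Mrps25 had 1121 and 1268, 1218 and 839, and 2840 and 2165, and Mrps27, an RNA-binding protein with the lowest probe set signal of the members, had 210 and 219, 244 and 201, and 631 and 325. In both the homozygous arrays were above the others. Mrps12, whose bacterial homologue checks codon pairing, overlapped between groups, with 1648 and 2438, 2310 and 2043, and 2745 and 2227. Mrps21 was the only small subunit gene below 0, with 2951 and 2896, 2995 and 2888, and 2110 and 1956. Its homozygous values lay under the other 4, a difference of -0.52 ± 0.21 (adjusted p = 0.174, limma) that was 0.019 with median-centred arrays.

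The 3 genes of the Mrps18 family differed in their values. Mrps18b had 865 and 900, 782 and 888, and 3072 and 1723 (1.38 ± 0.33). Mrps18c, of the decoding platform, had 3182 and 3141, 3097 and 2670, and 3334 and 3710 (0.15 ± 0.22), and Mrps18a, whose protein sits in the large subunit, had 2356 and 1795, 1687 and 2614, and 2602 and 2422 (0.29 ± 0.31). Only in Mrps18b and Mrps18c did both homozygous arrays lie above all 4 others. Mrps36, now regarded as part of the alpha-ketoglutarate dehydrogenase complex, had 2465 and 2266, 3163 and 2738, and 3133 and 1977, with overlap.

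Most members shared the direction, but not the size, and bright probe sets showed less of it. Across members the Pearson correlation of the homozygous minus wild-type difference with the mean heterozygous log2 signal, which the difference does not use, was -0.43 and Spearman's rho -0.47 over 76 genes of the same arrays, against -0.04 and -0.01 over all genes tested. The 38 brighter members had a median difference of 0.22 and the 38 dimmer ones 0.67. For all genes tested the medians of the brighter and the dimmer part were -0.08 and -0.10.

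**Figure D4:**
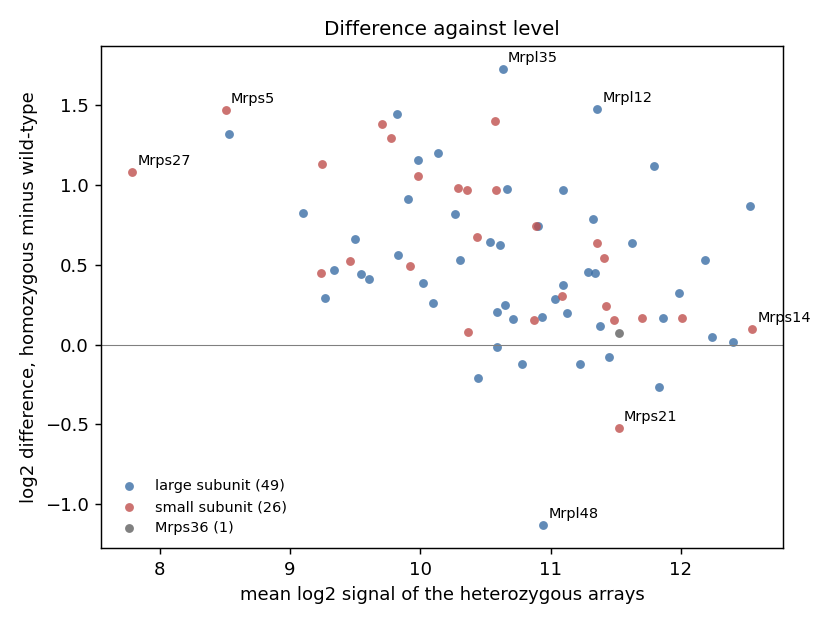
Difference of homozygous and wild-type mean log2 signals against the mean log2 signal of the heterozygous arrays, 1 point per member, coloured by subunit. Dim members such as Mrps5 and Mrps27 sit above 1, bright ones such as Mrps14 lie near 0, and Mrpl48 and Mrps21 are the lowest points.

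Other probe sets of the same genes were read as well. Of 80 further probe sets for 42 members, 54 passed the filter. In homozygous minus wild-type arrays 47 of these had the sign of the one used, and the median difference of all 54 was 0.52. All 6 probe sets of Mrpl15 above the filter were positive, from 0.85 to 1.12. Both signs occurred above the filter in Mrpl3, Mrpl17, Mrpl27, Mrps5, Mrps9 and Mrps14.

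Members with and without each motif were set side by side. The 9 members with the NRF1 letters, Mrpl12 among them, had a median difference of 0.16 and the 58 without them 0.51. For the ETS letters, as in Mrps22, the medians were 0.37 (17 genes) and 0.48 (50 genes), and for the YY1 letters 0.38 (4 genes) and 0.52 (63 genes). The E-box gave 0.26 (5 genes) and 0.51 (62 genes), SP 0.45 and 0.53, and NF-Y 0.48 and 0.47. The pair that shares the 41-base gap had differences of 0.45 (Mrps11) and 0.41 (Mrpl46), with signals of 796 and 645, 690 and 526, and 942 and 1017 in the first and 831 and 831, 771 and 790, and 1336 and 912 in the second. In both genes the homozygous arrays exceeded the other 4.

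Homozygous and heterozygous arrays, which share the homozygous samples with the comparison above, differed by a median of 0.49 over the members, with 62 of 76 above 0 (background 45.7%). In limma 0 members were called (background 4.09%, of which 0.87% higher and 3.22% lower), 29 had an unadjusted p under 0.05 (background 30.6%), 27 of them higher (background 12.5%) and 2 lower (background 18.2%). Both homozygous arrays were above both heterozygous ones in 46 members (background 28.2%) and below in 4 (background 34.2%). Mrps5 (1.31, adjusted p = 0.0567), Mrps31 (1.13, 0.0572), Mrpl35 (1.48, 0.0572) and Mrps22 (1.10, 0.0588) had the smallest adjusted p-values in limma, and Mrpl19, Mrps18b, Mrpl12 and Mrps25 differed by 1.50, 1.47, 1.32 and 1.29. Of 14 members below 0, those whose arrays did not overlap were Mrpl48 (-0.75), Mrpl24 (-0.59), Mrps21 (-0.53) and Mrpl23 (-0.22), and Mrpl3 and Mrps16 lay at -0.04 and 0.01. Mrpl23, whose range over the arrays was among the smallest, had 2104 and 2381, 2367 and 2431, and 1882 and 2259, and its difference was 0.30 with median-centred arrays. Without homozygous array 2, 18 members were called higher (background 7.54%) and 0 lower (background 18.5%).

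Heterozygous and wild-type arrays gave small differences in the members. The median difference was 0.07, 49 of 76 members were above 0 (background 50.8%) and the values ran from -0.44 to 0.41. In limma 0 members were called, 0 genes in all were (background 0%), and at an unadjusted p under 0.05 there were 0 members (background 0.65%). The arrays did not overlap in 14 members with higher (background 13.2%) and 8 with lower heterozygous signals (background 12.8%). With arrays centred on the cytosolic genes, 32 members were above 0.

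Among members whose arrays did not overlap, the largest higher value was that of Mrpl3, beside the catalytic centre, with 1502 and 1810 in wild-type and 1872 and 2566 in heterozygous arrays (0.41 ± 0.26, adjusted p = 1.00). Mrps10, Mrpl24, Mrps36, Mrpl1 and Mrpl35 followed with 0.40, 0.32, 0.32, 0.29 and 0.25. Among the lower ones without overlap the lowest was Mrpl20, with 2254 and 2109 against 1777 and 1453 (-0.44 ± 0.24), before Mrpl48 (-0.39), Mrps6 (-0.32), Mrpl37 (-0.29), Mrpl16 (-0.17) and Mrps18c (-0.14). The difference of Mrpl1 was -0.28 with the mean of its probe sets, and -0.21 in its further probe set above the filter.

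The 2 homozygous arrays were not alike in the members. Array 1 exceeded array 2 in 61 of 76 members by a median of 0.41, in 28 of 46 cytosolic genes by 0.04, and in 47.3% of all genes tested with a median of -0.04. Array 1 was the highest of all 6 arrays in 53 members, 69.7%, against 28.0% of all genes tested. The SD of the members' difference between 2 arrays was 0.24 for the wild-type pair, 0.27 for the heterozygous pair and 0.42 for the homozygous pair. The closest pair crossed the groups, wild-type 2 and heterozygous 1, at 0.13. Both homozygous arrays were above all other 4 in 45 members (background 23.4%) and below them in 3 (background 28.9%), Mrpl24, Mrps21 and Mrpl48.

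Set against the cytosolic ribosome, the members' median log2 signal minus that of the reference was -3.68 and -3.97 in wild-type arrays, -3.85 and -3.93 in heterozygous and -3.33 and -3.65 in homozygous arrays, so the gap was smallest in homozygous array 1, and homozygous array 2 was close to wild-type array 1. Signals of 36 of the 46 reference genes averaged at least 10000, where the 99th percentile of an array lay at 13888 to 15859 and its highest signal at 40450 to 51558. No member averaged as much as 10000. These 36 had differences of -0.20 to 0.52 between homozygous and wild-type arrays, and the 10 dimmer ones ran from -5.80 (Rps4l) to 2.10 (Rpl12). The homozygous signals of Rps4l were 2.39, which is under background, and 87.4. Rps25 had 562 and 1094, 1127 and 694, and 3595 and 1807 (1.70). How far signal brightness bears on the smaller reference differences was not tested.

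The genes that work beside these proteins were read from lists. Of 5 mitochondrial ribosomal proteins with other symbols, all were above 0 in homozygous minus wild-type arrays. Ptcd3, an RNA-binding protein at the message entry, had 1232 and 1144, 1136 and 1176, and 4379 and 2670 (1.53, adjusted p = 0.0645 in limma), and Gadd45gip1, near the tunnel exit, 301 and 668, 846 and 912, and 2573 and 1478 (2.12). Chchd1, Dap3 and Oxa1l, the insertase that receives the new chains, differed by 0.67, 0.13 and 0.48. Ptcd3, Gadd45gip1 and Chchd1 had both homozygous arrays above the other 4.

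Of 13 translation factors 12 were above 0 with a median of 0.35, among them the elongation factor Gfm1 (1.08), the initiation factor Mtif2 (0.63), the RNA-stabilising Slirp (0.40) and the elongation factor Tufm (0.26). Of 19 genes listed as mitochondrial tRNA synthetases 14 were above 0 (median 0.36), with Kars, Gars and Iars2 at 1.36, 1.04 and 0.48 and Rars2 at -0.56. Whether the genes of that list also serve the cytosol was not examined. Of 24 assembly genes 16 were above 0 (median 0.32), with Dhx30, Malsu1, Mterf3 and Grsf1 at 0.56, 0.55, 0.31 and 0.28. Of 18 genes for the copying and reading of mitochondrial DNA 14 were above 0 (median 0.38), with Ssbp1, Tfam and Tfb2m at 0.46, 0.33 and 0.31 and Hsd17b10 at -0.36. In limma 0 genes of these lists were called in any comparison, and 3, 5, 6 and 3 of them had an unadjusted p under 0.05 in homozygous minus wild-type arrays, all higher. These were 23.1%, 26.3%, 25% and 16.7% of the lists, beside 28.9% of all genes tested in either direction and 11.7% higher.

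Among 16 nuclear regulators of such genes, 9 were above 0, with a median of 0.18 (0.0082 with arrays centred on the cytosolic genes) and 0 called. Atf4, Sp1 and Yy1 differed by 0.62, 0.46 and 0.33, and Gabpa, a subunit of the ETS factor GABP, by -0.48. Of 70 subunits of oxidative phosphorylation 28 were above 0 and 0 were called. Their median of -0.07, beside -0.09 over all genes tested, turned to 0.47 with median-centred arrays, against 1.02 for the members and 0.63 for the cytosolic genes. Uqcrb, Cox6a1, Cox7a2 and Atp5g3 differed by -0.14, -0.25, -0.35 and -0.08. Of 19 proliferation genes 19 were above 0 with a median of 1.40 and 0 called.

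**Figure D5:**
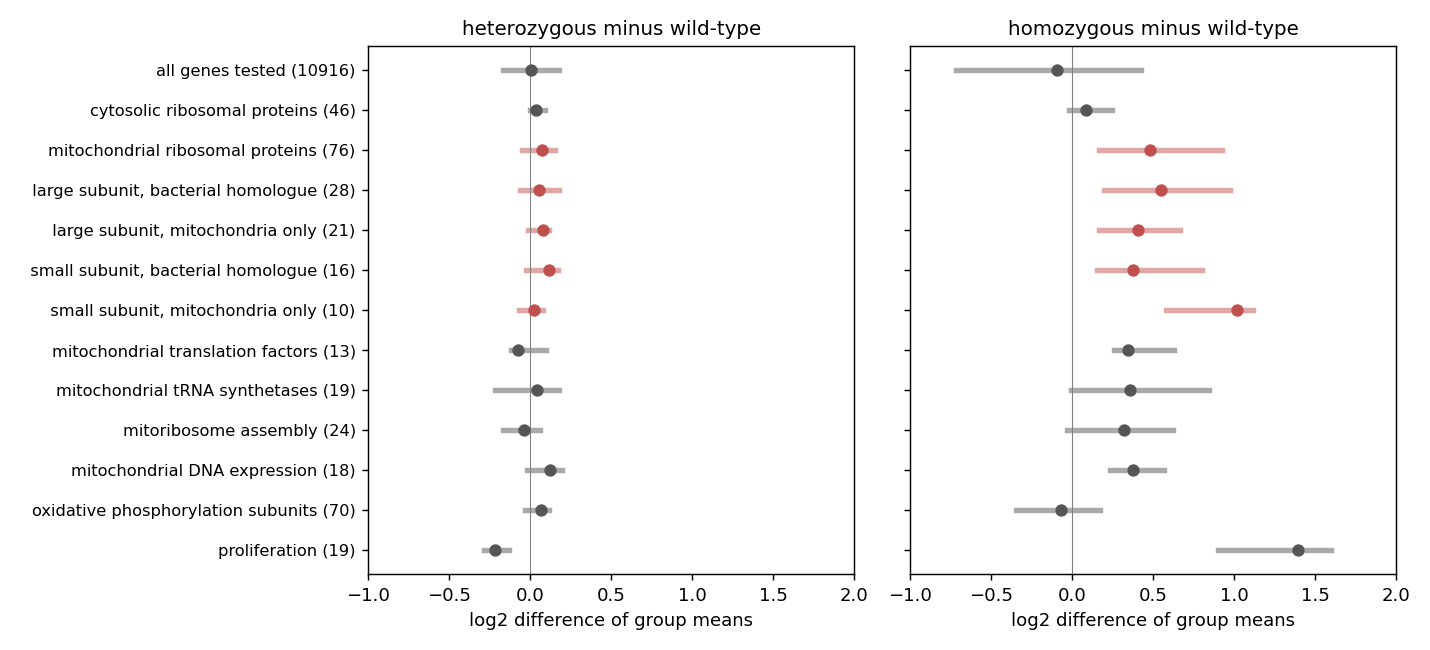
Median (point) and interquartile range (bar) of the log2 difference of group means in each list, with the number of genes tested in brackets, for heterozygous (left) and homozygous (right) minus wild-type arrays. On the right the ribosomal classes lie between 0.38 and 1.02, oxidative phosphorylation and the cytosolic genes lie near 0, and proliferation lies at 1.40.

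Proliferation genes were read in each array as well. The median log2 signal of the 19 proliferation genes was 10.54 and 12.04 in wild-type, 12.09 and 9.97 in heterozygous and 12.89 and 12.25 in homozygous arrays. Homozygous array 1 and then array 2 were the highest in both these genes and the members. Wild-type array 2 and heterozygous array 1 were close to homozygous array 2 in these genes, while their member medians, 10.70 and 10.66, were close to those of wild-type array 1 and heterozygous array 2. Mcm7, a replication helicase subunit, had 5167 and 11093, 10043 and 3921, and 16256 and 12477. The part of proliferation in the homozygous difference was not tested.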

How the data were processed

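Total RNA of 6 samples was labelled with biotin and read on single-colour arrays, per the labels. The authors deposited linear probe set intensities. RMA is named in the submitters' processing notes (version: not given in the sources used here), but the values are not on the log2 scale of RMA output. As deposited, every array had been brought to one trimmed mean of 499.8 (middle 96% of probe sets), as MAS 5.0 signals have, while array medians differed. No further background correction or normalisation was added, and log2 of the deposited intensity was taken with no offset. Arrays have no count depth, and their number limits the precision.

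Of 45101 probe sets, 34958 named 1 symbol, and 34754 of these were matched by Entrez identifier. The 932 with several symbols and the 9211 with none were not used. The brightest probe set stood for a gene, and the 10916 genes at or above the 40th percentile (geometric mean signal 60.2) were tested. A fit of 3 group means over all 6 arrays was made with limma 3.58.1 in R 4.3.3 with eBayes, which left 3 residual and 2.26 prior degrees of freedom, and p-values were adjusted by Benjamini-Hochberg over all genes tested. The procedure was tested on simulated data.

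The members, the gene lists (partner proteins, regulators, oxidative phosphorylation, proliferation and cell type markers) and the tests were chosen with earlier results of these data known. The rule for genes to name took every called member and every member under the filter, of which there were 0 of each; in each comparison up to 6 members with the largest difference in each direction whose arrays do not overlap; the 5 highest and 5 lowest in level and the 5 widest and 5 narrowest in range; all mitochondrial ribosomal proteins with other symbols; the Mrps18 family; and in other lists the called genes with up to 4 of high level, or 6 of wide range in the cytosolic set. The list genes not singled out are given through their counts and medians. Further members, named with their role groups, promoters or probe sets or for small adjusted p-values, and Tie1, Vwf, Cyp17a1, Cdh1 and Aldh1a2 were chosen after their values were seen. Promoters came from RefSeq (GRCm38.p6), and Python 3.11.15 with matplotlib 3.10.9 made the figures. Where a label of the homozygous samples gave another gene of the p53 family, the titles were followed. A part of the genotype label that all samples share is not reported here. Protein sequences were not used here, so the planned comparison of the Mrps18 proteins was not run.

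Alternatives were 3 other scalings, 2 other filters, the mean of all probe sets, signals raised to background, a fit of only the compared groups, a spread of its own for each group, a replicate block and each array left out. Leaving out wild-type array 2 and heterozygous array 1 together, since they were close, was added after the data were seen.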

Additional observations from a re-analysis of the deposited data

How the results depend on the processing

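The number of arrays and, for dim genes, the signal over background limit these results, and the cause of each change below was not tested unless the setting itself gives it. In homozygous minus wild-type arrays the members' median was above 0 in every setting run. It was 1.02 with median-centred arrays and 0.31 with arrays centred on the cytosolic genes, where the scaling itself shifts all genes alike, and 0.37 to 0.70 with 1 array left out. In homozygous minus heterozygous arrays it was 1.01 with median-centred arrays and 0.37 to 0.72 with 1 array left out. The members' median minus that of all genes tested was 0.41 to 0.81 and 0.41 to 0.84, and minus that of the cytosolic genes 0.25 to 0.57 and 0.31 to 0.66, with 1 array left out.

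Calls in limma changed with the setting. In homozygous minus wild-type arrays 3 members were called higher (Mrpl35, Mrps5, Mrps31) and 1 lower (Mrpl48) with the filter at the 60th percentile, which tests fewer genes (background 2.09% higher, 3.83% lower), and 2 higher with signals raised to background (background 1.15%). In homozygous minus heterozygous arrays the counts called higher were 4 with that filter (background 2.57%), 3 with signals raised to background (background 1.5%) and 1 (Mrps22) with median-centred arrays (background 1.57%). With 1 array left out, calls ranged from 0 to 19 higher and from 0 to 1 lower, and from 0 to 18 higher, in these comparisons, where only homozygous array 2 left out gave any (background 7% and 17.4%, and 7.54%). In the remaining settings run 0 members were called. Calls over all genes tested moved too. The 291 in homozygous minus wild-type arrays became 0 with no filter, with only the compared groups and with the replicate block. With signals raised to background they were 126 higher and 479 lower. The 446 in homozygous minus heterozygous arrays became 1 higher and 16 lower with no filter, and 164 and 567 with signals raised to background. Calls rose with homozygous array 1 or 2 left out and fell with any wild-type or heterozygous array left out, in fits that leave 1 array in a group. In heterozygous minus wild-type arrays they were 0 in every setting run.

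Fewer arrays make it easier for groups not to overlap. With 1 array left out the counts of members without overlap were 53 to 67 higher (background 35% to 38.3%) and 4 to 12 lower (40.5% to 48.2%) in homozygous minus wild-type, 48 to 62 (33.9% to 39.2%) and 5 to 18 (39.2% to 48.6%) in homozygous minus heterozygous, and 20 to 39 (25.9% to 37.3%) and 14 to 22 (27.8% to 35%) in heterozygous minus wild-type arrays. Without the close arrays of both groups they were 50 (background 51.8%) and 26 (48.2%) in heterozygous minus wild-type, where every gene then counts, and 9 lower (45%) in homozygous minus heterozygous arrays. There the heterozygous minus wild-type median lay -0.21 from that of the cytosolic genes. With 1 array left out the heterozygous minus wild-type median of the members ran from -0.014 to 0.10. In heterozygous minus wild-type arrays 32 members were above 0 with arrays centred on the cytosolic genes.

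Reversed differences were those of Mrpl1 in heterozygous minus wild-type (-0.28, mean of all probe sets), Mrpl23 (0.30, median-centred) and Mrps21 (0.0081, mean of all probe sets) in homozygous minus heterozygous, and Mrpl24 (0.28) and Mrps21 (0.019) in homozygous minus wild-type arrays, median-centred.

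With the replicate number as a block, 0 members were called in each comparison. Of all genes tested 0 were called in homozygous minus wild-type arrays, and 0.0183% higher and 0.156% lower in homozygous minus heterozygous arrays. An unadjusted limma p under 0.05 occurred in 24 and 21 members in these comparisons, but the share of all genes was not counted in this setting. The medians stayed at 0.48, 0.49 and 0.07. The differences of replicate 1 and 2 correlated at -0.30, -0.10 and 0.16 between groups. The titles give only a replicate number, and these correlations cannot settle whether same-numbered samples were processed together. No pairing was used in the main fit.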
